A study of Homo sapiens with 10 samples.

Results

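The mitosis and kinetochore genes are 48 genes, from the kinases that start cell division to the proteins that pack the chromosomes, pair them with the spindle and separate the daughter cells. They were chosen by name from a list, with earlier results of these data known. Each was followed through every array probe annotated to it. The array carried 55 such probes, of which 54 had a detection score of at least 0.99 on at least 1 array and were kept, so that all 48 genes were measured, out of 10601 genes with a kept probe and 16372 genes on the array. Where several probes of a gene were kept, the brightest stands for the gene.

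The cells were MDA-MB-435, an established human melanoma line, and 10 samples of total RNA, in 5 groups of 2, were read on 1 Illumina Human-8 V1 BeadChip array each. The groups were cells transduced with integrin beta-4 (ITGB4), cells given HGF, hepatocyte growth factor, for 1 h, 6 h and 24 h, and untreated cells of the same line. The design text calls both samples of a group biological duplicates, and neither the HGF dose nor the vector is given in the sources used here. HGF is the ligand of the receptor tyrosine kinase MET, and ITGB4 is the beta subunit of the laminin receptor of hemidesmosomes, so the comparisons ask how the division genes stood after each stimulus.

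In mitosis the condensin complexes and topoisomerase II compact the duplicated chromosomes, kinetochores assembled on centromeric CENPA chromatin capture spindle microtubules, and a checkpoint holds back anaphase until every chromosome is attached. The anaphase-promoting complex with CDC20 then destroys cyclin B and securin, and the cell is divided by cytokinesis. Most of these genes are transcribed in waves that peak in G2 phase and mitosis, and many of their promoters carry a CHR element, with the core letters TTTGAA, which the DREAM and MuvB complexes bind, and CCAAT boxes, which NF-Y binds.

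Promoter sequences are shown because the members share these letters although the list was not built from them. RefSeq promoters (GRCh38.p14, 250 bases before to 50 bases after the annotated start) were found for 42 of the 48 genes, and no entry was found for AURKA, BUB3, TTK, TPX2, BIRC5 and UBE2C. TTTGAA, searched on both strands, stood in 29 of the 42 promoters (69.0%), against 15.4% of all 27305 promoters. CCAAT, also on both strands, stood in 30 (71.4%), against 35.7% of all promoters, and 19 of the 42 had it more than once (45.2%), against 11.3%. Both motifs were present in 22 (52.4%), against 6.08% of all promoters, and a base can belong to both where they overlap. A match is only a description of the letters and not a shown binding site. Shown are 4 promoters of genes with low signals after 1 h of HGF and then 2 of genes without, in lower case with each TTTGAA and CCAAT match, on either strand, in capitals. The CENPF window is chr1:214602945-214603244 on the plus strand, that of ASPM chr1:197146620-197146919 on the minus strand, that of SMC4 chr3:160399400-160399699 on the plus strand, that of CENPE chr4:103198294-103198593 on the minus strand, that of CDC20 chr1:43358731-43359030 on the plus strand and that of PLK1 chr16:23678639-23678938 on the plus strand.
CENPF: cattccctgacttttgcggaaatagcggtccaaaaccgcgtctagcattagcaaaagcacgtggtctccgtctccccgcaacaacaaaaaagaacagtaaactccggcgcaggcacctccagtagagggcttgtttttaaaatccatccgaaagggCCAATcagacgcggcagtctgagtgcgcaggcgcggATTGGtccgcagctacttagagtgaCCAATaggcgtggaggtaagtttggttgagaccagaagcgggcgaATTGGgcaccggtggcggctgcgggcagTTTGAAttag
ASPM: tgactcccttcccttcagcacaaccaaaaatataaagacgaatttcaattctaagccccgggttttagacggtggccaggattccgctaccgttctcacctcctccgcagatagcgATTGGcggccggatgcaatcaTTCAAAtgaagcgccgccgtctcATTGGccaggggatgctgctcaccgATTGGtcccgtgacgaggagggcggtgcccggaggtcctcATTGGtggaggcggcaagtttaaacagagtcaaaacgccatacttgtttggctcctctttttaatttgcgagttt
SMC4: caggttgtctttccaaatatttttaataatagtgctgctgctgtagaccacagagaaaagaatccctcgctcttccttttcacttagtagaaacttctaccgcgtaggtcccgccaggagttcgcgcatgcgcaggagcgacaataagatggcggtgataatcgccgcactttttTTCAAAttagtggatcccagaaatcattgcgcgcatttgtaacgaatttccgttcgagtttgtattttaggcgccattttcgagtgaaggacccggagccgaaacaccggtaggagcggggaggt
CENPE: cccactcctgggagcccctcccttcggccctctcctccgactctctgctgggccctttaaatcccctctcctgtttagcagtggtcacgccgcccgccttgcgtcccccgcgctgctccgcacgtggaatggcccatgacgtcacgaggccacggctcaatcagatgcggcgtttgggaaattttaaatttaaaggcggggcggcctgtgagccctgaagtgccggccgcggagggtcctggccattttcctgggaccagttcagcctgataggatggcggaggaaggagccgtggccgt
CDC20: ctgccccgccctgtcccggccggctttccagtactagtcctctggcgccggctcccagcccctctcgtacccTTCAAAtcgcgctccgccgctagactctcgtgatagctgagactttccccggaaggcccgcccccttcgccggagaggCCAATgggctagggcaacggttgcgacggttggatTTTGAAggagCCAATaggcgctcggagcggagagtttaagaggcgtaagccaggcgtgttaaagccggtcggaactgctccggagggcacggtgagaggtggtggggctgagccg
PLK1: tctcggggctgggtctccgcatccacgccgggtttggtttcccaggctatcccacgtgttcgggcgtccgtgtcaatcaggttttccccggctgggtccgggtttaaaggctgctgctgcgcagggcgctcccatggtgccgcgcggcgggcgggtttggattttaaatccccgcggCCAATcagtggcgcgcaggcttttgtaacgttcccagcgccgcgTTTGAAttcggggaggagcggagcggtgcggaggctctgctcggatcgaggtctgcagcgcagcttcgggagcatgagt

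CENPF and ASPM each showed 4 CCAAT matches and 1 TTTGAA match, and SMC4 showed 1 TTTGAA match alone. Neither set of letters was found in the CENPE window. CDC20 showed 2 matches of each motif and PLK1 showed 1 of each.

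Array signals were normalised to a common distribution by quantiles and compared on the log2 scale with limma, in a single fit of the 5 group means, and calls were made on p-values adjusted over all 14018 kept probes by the method of Benjamini and Hochberg, below 0.05. A signal is in arbitrary brightness units, so levels of different genes are not set against each other, and the detection limit stood near a signal of 89.6. Of the 48 genes, 46 were detected on all 10 arrays, CDC25C on 9 and INCENP, near the detection limit, on 5. Scanner medians before normalisation ran from 74.9 to 96.9, each array detected between 10226 and 11899 probes, and a median of 26 to 32 beads stood behind an intensity. The scores of undetected probes were low on replicate 1 of the untreated and of each HGF group and high on the other 6 arrays, so that differences within a replicate number, for HGF against untreated cells, are also differences within each kind of array. The ITGB4 probe read 6788 and 5023 on the ITGB4 arrays, and between 59.6 and 63.9, undetected, on the other 8. Of 12 melanocyte markers 10 were detected on every array, TYRP1 and SOX10 among them. Of 12 epithelial markers 3 were detected on every array (KRT18, with a signal of 318 to 569, KRT7 and KRT14), 4 on some and 5, EPCAM and CDH1 among them, on none. Of 7 fibroblast markers 2 were detected on every array (LUM, 278 to 688, and DCN, 214 to 284), ACTA2 on 9 arrays and 4, COL1A1 and PDGFRB among them, on none. Of 6 immune and blood markers CD68 (144 to 255) was detected on every array, PTPRC on 5 arrays and 4, CD3E and CD14 among them, on none.

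The division genes varied more between replicates than most probes did. Their median within-group standard deviation was 0.289 on the log2 scale, against 0.181 over all kept probes. Their median level was also higher, at 9.45 against 7.42, and the spreads were not compared at matched levels. On replicate 2, 47 of the 48 genes read higher than on replicate 1 after 1 h of HGF and 37 after 6 h, against 42 in untreated cells, while over all kept probes the share was between 48.8% and 51.1% in these groups. After 24 h of HGF and in ITGB4 cells the count was 27 of 48 each, against 50.3% and 53.0% of kept probes. Of a list of 46 genes of DNA replication and the G1/S transition, 41 were measured. Of these 41 genes, 36 read higher on replicate 2 at 1 h of HGF, 39 at 6 h and 40 in untreated cells. They also leaned that way after 24 h of HGF (38 of 41) and in ITGB4 cells (29 of 41). In the untreated and HGF groups replicate 1 is also the low-score array and replicate 2 the high-score array, so fits with the score as a block are given beside the comparisons they change.

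**Figure D1:**
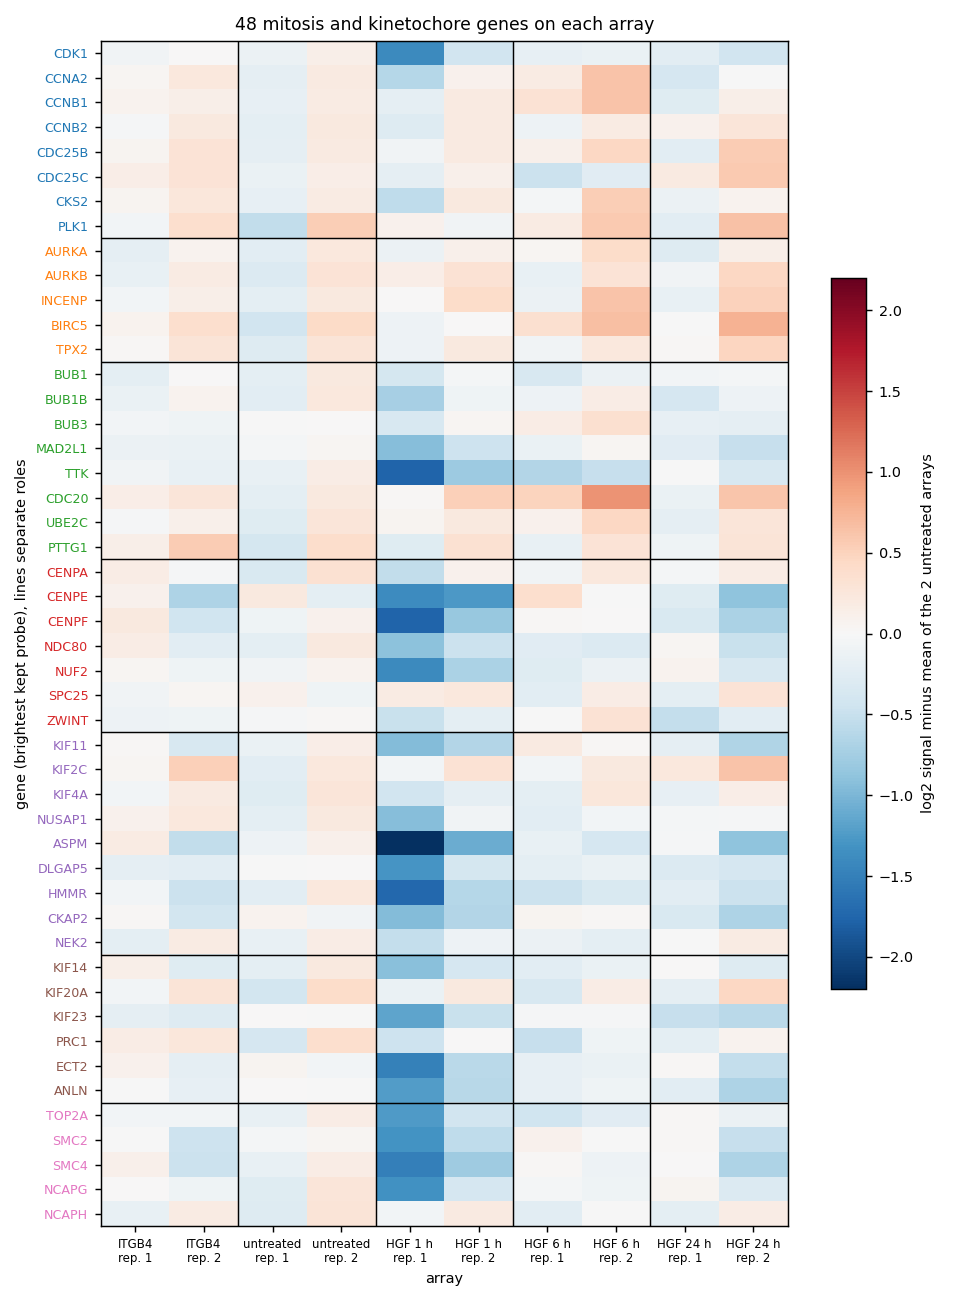
Heat map of the 48 genes (down the page, grouped by role and separated by lines) on the 10 arrays (across), coloured by the log2 signal minus the mean of both untreated arrays. The bluest column is replicate 1 of HGF 1 h, where the median gene stood at -0.55, against -0.090 on replicate 2 of HGF 1 h.

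After 1 h of HGF the signals of many kinetochore, spindle, cytokinesis and chromosome-structure genes were lower than in untreated cells. Among them were ASPM (3.25-fold lower), CENPE (2.5-fold lower) and CENPF (2.46-fold lower), but no difference passed the test across all probes in the main fit. The cyclins CCNB1 and CCNB2, the kinase PLK1, the Aurora kinases and the anaphase activator CDC20 had differences close to or above 0. The median over the 48 genes was -0.31 on the log2 scale, against 0.04 over all kept probes, with 36 genes below 0, where 43% of kept probes lay, and 12 above. RNA came from whole cultures, so fewer cells in G2 or mitosis and less of each RNA per dividing cell cannot be told apart.

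Limma called 0 of the 48 genes at 1 h, where it also called 0% of all kept probes. That count depended on the fit. With the replicate number as a block a part of the 48 genes was called, all lower, a larger share than of all kept probes. The closing section gives both counts. With the array score as a block 0 were called. Both blocks group the untreated and HGF arrays alike and differ only in replicate 1 of ITGB4, an array outside this comparison. Why the counts differ was not tested. At an unadjusted p under 0.05, 20 genes were lower (41.7%), against 8.52% of all kept probes, and 0 were higher, against 5.01%. Both 1 h arrays lay below both untreated arrays for 21 genes, against 20.1% of kept probes, and above them for 1, SPC25, against 24.1%. The median difference was -0.40 within replicate 1 and -0.34 within replicate 2, and 31 genes were below 0 within both numbers (64.6%), against 27.7% of kept probes. Single arrays moved these values in both directions. Without replicate 1 of HGF 1 h the median was -0.090, and without replicate 2 of the untreated group it was -0.14. The median was -0.55 without replicate 2 of HGF 1 h and -0.56 without replicate 1 of the untreated group.

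**Figure D2:**
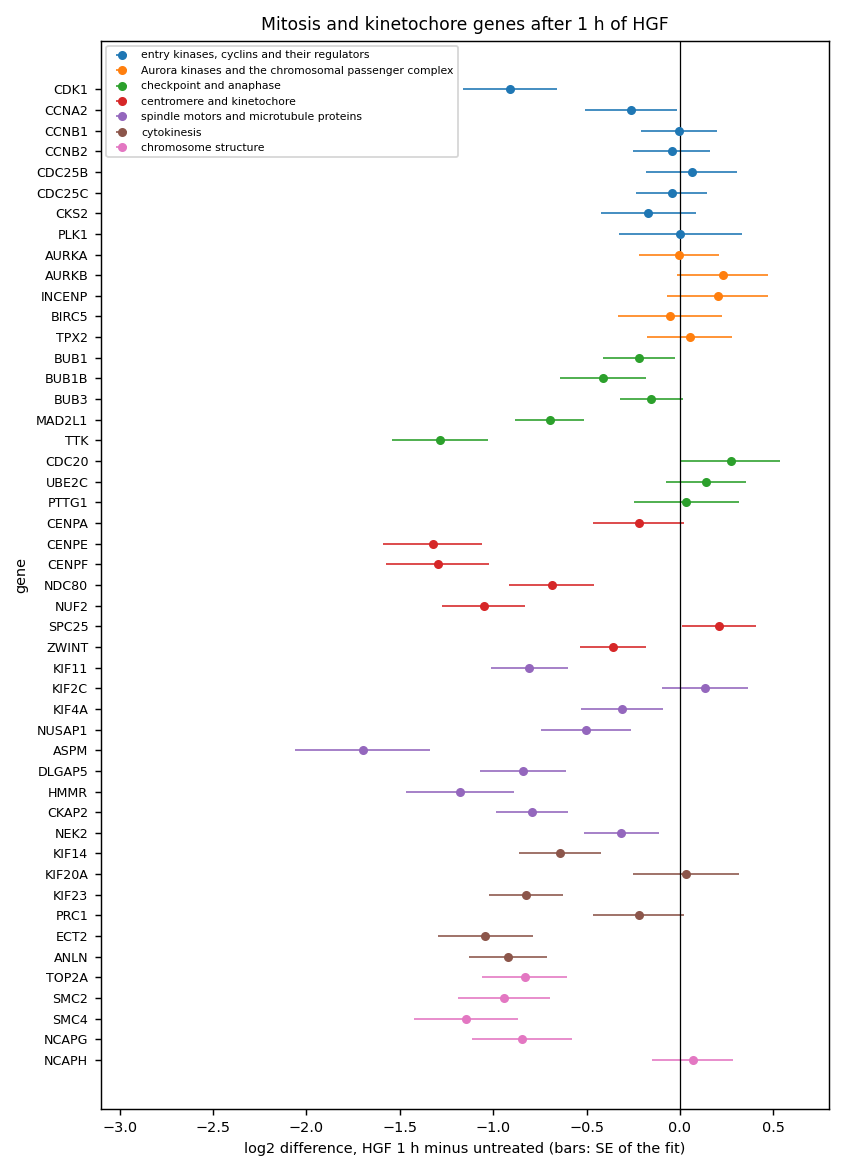
Log2 difference of each of the 48 genes, HGF 1 h minus untreated (x axis), with the standard error of the fit as bars and colours for roles. Points run from -1.70 for ASPM to 0.27 for CDC20, with most kinetochore, spindle, cytokinesis and chromosome-structure genes left of 0 and the Aurora and passenger genes around it.

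Among the entry kinases, cyclins and their regulators, 8 genes, the median difference at 1 h was -0.04 and CDK1 alone was lower at an unadjusted p under 0.05. CDK1, the kinase that drives entry into mitosis, read 1729 and 1842 on the ITGB4 arrays, 1663 and 2009.5 on the untreated arrays, 691 and 1368 at 1 h, 1606 and 1642 at 6 h and 1562 and 1366 at 24 h of HGF. Its 1 h arrays lay below both untreated arrays, and the difference was -0.91 ± 0.25 (SE, adjusted p = 0.199). A second, dimmer CDK1 probe gave -0.58 ± 0.31 in the same comparison. CCNB1, cyclin B1, the activating partner of CDK1, read 2361 and 2449.5 on the ITGB4 arrays, 1971 and 2531 on the untreated arrays, 1947 and 2547 at 1 h, 2789.5 and 3444 at 6 h and 1857 and 2452 at 24 h of HGF. Its 1 h and untreated arrays overlapped almost entirely (0.00 ± 0.20), and the highest pair was that of 6 h. PLK1, a kinase needed for spindle poles and cytokinesis, read 303 and 409.8 on the ITGB4 arrays, 218 and 462 on the untreated arrays, 338 and 299.5 at 1 h, 361 and 476 at 6 h and 269.8 and 496 at 24 h of HGF. The PLK1 pairs at 1 h disagreed, with a difference from the untreated array of 0.63 within replicate 1 and -0.63 within replicate 2, which left 0.00 ± 0.33 in the fit. The other genes, CCNA2, CCNB2, CDC25B, CDC25C and CKS2, lay between -0.26 and 0.06.

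The Aurora kinases and their partners, 5 genes, had a median difference of 0.05 at 1 h, and 0 of the 5 were lower at an unadjusted p under 0.05. AURKA, the kinase of the spindle poles, read 983 and 1182 on the ITGB4 arrays, 963 and 1314 on the untreated arrays, 1031 and 1217 at 1 h, 1159 and 1489.6 at 6 h and 919.9 and 1235 at 24 h of HGF. AURKB, the kinase of the chromosomal passenger complex at centromeres, read 2282 and 2886 on the ITGB4 arrays, 2074 and 3146 on the untreated arrays, 2816 and 3177 at 1 h, 2275 and 3157 at 6 h and 2422 and 3482 at 24 h of HGF. For both kinases every group overlapped the untreated arrays. BIRC5, or survivin, the passenger subunit that brings the complex to centromeres, read 944 and 1151 on the ITGB4 arrays, 672 and 1193 on the untreated arrays, 824 and 903 at 1 h, 1143 and 1419 at 6 h and 886 and 1518 at 24 h of HGF. Replicate 2 was above replicate 1 in every group, and the 1 h difference of -0.05 ± 0.28 was small beside that gap. INCENP, the scaffold of the complex, and TPX2, the activator of AURKA, differed by 0.20 and 0.05.

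Of the 8 checkpoint and anaphase genes, TTK and MAD2L1 were lower at an unadjusted p under 0.05, and the median was -0.19. TTK, also called MPS1, the kinase that starts checkpoint signalling at unattached kinetochores, read 990.2 and 931 on the ITGB4 arrays, 926 and 1167 on the untreated arrays, 305 and 596 at 1 h, 668 and 732 at 6 h and 1033 and 812 at 24 h of HGF. The 1 h arrays were the lowest pair, 2.44-fold below untreated cells (-1.29 ± 0.26, adjusted p = 0.189), and the 6 h pair also lay below both untreated arrays. MAD2L1, the checkpoint protein that holds CDC20 inactive, had 638 and 894 at 1 h, against 1183 and 1266 in untreated cells (-0.70 ± 0.18, adjusted p = 0.193). BUB1, a checkpoint kinase of kinetochores, read 404 and 472 on the ITGB4 arrays, 404 and 545 on the untreated arrays, 358 and 454 at 1 h, 369 and 431 at 6 h and 448 and 454 at 24 h of HGF. BUB3, the partner that docks BUB1 and BUB1B there, read 2551 and 2508 on the ITGB4 arrays, 2638 and 2691 on the untreated arrays, 2082 and 2756 at 1 h, 2986 and 3409 at 6 h and 2359.7 and 2321 at 24 h of HGF. Neither BUB1 (-0.22 ± 0.19) nor BUB3 (-0.15 ± 0.17) separated its 1 h arrays from its untreated arrays. CDC20, which activates the anaphase-promoting complex, read 3772 and 4132 on the ITGB4 arrays, 2953 and 3958 on the untreated arrays, 3465 and 4909 at 1 h, 4807 and 6753 at 6 h and 3075 and 5221 at 24 h of HGF. Its highest mean was that of 6 h, and the 1 h difference was 0.27 ± 0.26. PTTG1, securin, the inhibitor of separase, read 1765 and 2372 on the ITGB4 arrays, 1236 and 2111 on the untreated arrays, 1348 and 2032 at 1 h, 1441 and 2000.0 at 6 h and 1519 and 1976 at 24 h of HGF. Replicate 2 was far above replicate 1 in untreated cells, and the 1 h difference was 0.03 ± 0.28. BUB1B, a checkpoint pseudokinase, and UBE2C, the ubiquitin-conjugating enzyme of the anaphase-promoting complex, differed by -0.41 and 0.14.

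The 7 centromere and kinetochore genes had a median of -0.69 at 1 h, and 4 of them were lower at an unadjusted p under 0.05. CENPE, the kinesin that moves chromosomes to the spindle equator, read 251 and 147 on the ITGB4 arrays, 273 and 203 on the untreated arrays, 90.0 and 98.1 at 1 h, 303 and 233 at 6 h and 197 and 128 at 24 h of HGF. Both 1 h arrays were below every other array (-1.32 ± 0.27, adjusted p = 0.189). They lay close to the detection limit, which restricts how low a value can read. CENPF, a large protein of the outer kinetochore, read 808 and 511 on the ITGB4 arrays, 649 and 743 on the untreated arrays, 205 and 389 at 1 h, 707 and 696 at 6 h and 553 and 428 at 24 h of HGF. The 1 h pair was again the lowest (-1.30 ± 0.28, adjusted p = 0.189), and the 24 h pair lay between it and the untreated pair. NUF2, a subunit of the NDC80 complex that grips microtubules, read 330.5 and 300.0 on the ITGB4 arrays, 302 and 338 on the untreated arrays, 121 and 197 at 1 h, 265 and 293 at 6 h and 338 and 251 at 24 h of HGF. Its 1 h difference was -1.05 ± 0.22 (adjusted p = 0.189), and a second probe near the detection limit gave -0.48 ± 0.17. NDC80, the partner of NUF2, had 113 and 152 at 1 h, against 183 and 244 in untreated cells (-0.69 ± 0.23). SPC25, another subunit of the same complex, did not follow, with 154 and 161 at 1 h, against 146 and 127 in untreated cells (0.21 ± 0.20). CENPA, the centromeric histone, read 827 and 729 on the ITGB4 arrays, 589.9 and 928 on the untreated arrays, 509 and 793 at 1 h, 705 and 864 at 6 h and 718 and 833 at 24 h of HGF. Its 1 h arrays overlapped the untreated arrays (-0.22 ± 0.24), and ZWINT, which links the checkpoint to the outer kinetochore, differed by -0.36 on its brightest probe. A second ZWINT probe, near the detection limit, overlapped, with 96.2 and 88.2 at 1 h and 110.6 and 91.2 in untreated cells.

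The 9 genes of spindle motors and microtubule proteins had a median of -0.79, and 5 of them were lower at an unadjusted p under 0.05. ASPM, a protein of the spindle poles, read 1079 and 655 on the ITGB4 arrays, 880.4 and 1036 on the untreated arrays, 193 and 449 at 1 h, 856 and 739 at 6 h and 933 and 515 at 24 h of HGF. It had the largest 1 h difference of the 48 genes (-1.70 ± 0.36, adjusted p = 0.189), with -2.19 within replicate 1 and -1.21 within replicate 2. HMMR, a microtubule-binding protein of the spindle, read 711 and 539.5 on the ITGB4 arrays, 636 and 871 on the untreated arrays, 224 and 483 at 1 h, 535 and 591 at 6 h and 632 and 537 at 24 h of HGF. KIF11, the kinesin that pushes the spindle poles apart, read 311 and 239 on the ITGB4 arrays, 275 and 338 on the untreated arrays, 157 and 194 at 1 h, 351 and 311 at 6 h and 264 and 194 at 24 h of HGF. The difference was -1.18 ± 0.29 for HMMR and -0.81 ± 0.21 for KIF11, whose replicates gave -0.81 and -0.80. CKAP2, a microtubule-stabilising protein, read 341 and 253 on the ITGB4 arrays, 357 and 317 on the untreated arrays, 174 and 216 at 1 h, 352 and 342 at 6 h and 266 and 211 at 24 h of HGF. KIF2C, the kinesin that takes microtubules apart at centromeres, read 1024 and 1437 on the ITGB4 arrays, 844 and 1175 on the untreated arrays, 960.3 and 1243 at 1 h, 959 and 1162 at 6 h and 1165 and 1541 at 24 h of HGF. The CKAP2 arrays at 1 h lay below both untreated arrays (-0.79 ± 0.19), whereas those of KIF2C overlapped them (0.13 ± 0.23). DLGAP5, a spindle assembly factor, differed by -0.84 ± 0.23. NUSAP1, a microtubule bundler, differed by -0.50 on its brighter probe and -0.60 on the other, and the chromokinesin KIF4A and the centrosome kinase NEK2 both by -0.31.

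Cytokinesis and chromosome structure completed the low groups, with medians of -0.73 over 6 genes and -0.84 over 5. KIF23, the kinesin of the centralspindlin complex at the cell's midzone, read 956 and 894 on the ITGB4 arrays, 1101 and 1082 on the untreated arrays, 488 and 778 at 1 h, 1072 and 1067 at 6 h and 766 and 726 at 24 h of HGF. ECT2, the exchange factor that switches on RhoA for the contractile ring, read 1826 and 1490.4 on the ITGB4 arrays, 1789 and 1648 on the untreated arrays, 614 and 1132 at 1 h, 1518 and 1547 at 6 h and 1745 and 1198 at 24 h of HGF. ANLN, anillin, the scaffold of that ring, read 529.8 and 466 on the ITGB4 arrays, 533 and 528 on the untreated arrays, 226 and 346 at 1 h, 468 and 497 at 6 h and 449.8 and 331 at 24 h of HGF. In all 3 genes both 1 h arrays lay below both untreated arrays on the brightest probe, with differences of -0.82 ± 0.20, -1.04 ± 0.26 and -0.92 ± 0.21. A second KIF23 probe, near the detection limit, overlapped, with 65.4 and 92.5 at 1 h and 65.6 and 108 in untreated cells. KIF14, a kinesin of the midbody, was the fourth gene lower at an unadjusted p under 0.05 (-0.64 ± 0.22), whereas KIF20A and PRC1, of the central spindle, differed by 0.03 and -0.22.

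TOP2A, topoisomerase II alpha, which untangles sister DNA, read 1280.5 and 1276 on the ITGB4 arrays, 1192 and 1480.4 on the untreated arrays, 562 and 991 at 1 h, 983 and 1119 at 6 h and 1355 and 1220.4 at 24 h of HGF. SMC2, the condensin ATPase shared by both complexes, read 250.0 and 184 on the ITGB4 arrays, 246 and 259 on the untreated arrays, 101 and 171 at 1 h, 270.2 and 251 at 6 h and 256 and 178 at 24 h of HGF. SMC4, its partner, read 2042 and 1366 on the ITGB4 arrays, 1692 and 2107 on the untreated arrays, 663 and 1099.7 at 1 h, 1926 and 1748 at 6 h and 1908 and 1174 at 24 h of HGF. Each of these genes had its lowest mean at 1 h, with differences from untreated cells of -0.83 ± 0.23, -0.94 ± 0.25 and -1.14 ± 0.28. The condensin I subunit NCAPG differed by -0.84 ± 0.27, and NCAPH, of the same complex, by 0.07 ± 0.22. The 1 h and untreated arrays of NCAPH overlapped.

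The promoter letters can be set beside these values as a description. Of the 20 genes lower at an unadjusted p under 0.05 at 1 h, 19 had a promoter entry and 17 of those (89.5%) held TTTGAA. Of the other 28 genes only 23 had an entry, and 12 of those (52.2%) held it. CCAAT ran the other way, with 11 of 19 (57.9%), against 19 of 23 (82.6%). CENPE was low without either motif, and CDC20 was not low with 2 matches of each.

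Between 1 h and 6 h of HGF, 9 genes rose and passed the test across all probes. CENPE rose 2.83-fold, ASPM 2.7-fold, CENPF 2.48-fold and SMC4 2.15-fold, and with them SMC2, KIF11, NUF2, CKAP2 and KIF23, all genes of kinetochores, spindle, midzone or condensin. No member was called lower. The low 1 h arrays that entered the comparison with untreated cells enter this one too, so it is no independent measure of them.

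Limma called 9 of the 48 genes higher at 6 h than at 1 h (18.8%), against 4.67% of all kept probes called in either direction. At an unadjusted p under 0.05, 21 were higher, against 9.3% of kept probes, and 0 were lower, against 11.1%. The median difference was 0.44, with 40 genes above 0, against 49.1% of kept probes, and it was 0.52 within replicate 1 and 0.28 within replicate 2. For 25 genes both 6 h arrays lay above both 1 h arrays, against 22.7% of kept probes, and 36 were above 0 within both numbers, against 32.9%. The calls rested on replicate 1 of HGF 1 h and both HGF 6 h arrays, since limma called 0 of the 48 genes without replicate 1 of HGF 1 h, 0 without replicate 1 of HGF 6 h and 1 without replicate 2 of HGF 6 h, but 18 without replicate 2 of HGF 1 h. With ordinary variances limma called 0 of the 48 and 0 of all kept probes. It called 1 of the 48 with the authors' value table and 4 with no filter on low values. With low and high array scores as a block it called 21, among 1690 probes. The closing section gives how many of all kept probes were called with single arrays left out and with the value table.

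CENPE, the chromosome-moving kinesin, had 303 and 233 at 6 h, against 90.0 and 98.1 at 1 h, a difference of 1.50 ± 0.27 (adjusted p = 0.0107). CENPF of the outer kinetochore had 707 and 696 at 6 h, against 205 and 389 at 1 h (1.31 ± 0.28, adjusted p = 0.0221). NUF2 of the NDC80 complex differed by 0.85 ± 0.22 (adjusted p = 0.047). Its second probe, undetected at 1 h, read 83.1 and 104 at 6 h, against 78.4 and 76.5 at 1 h. In all 3 kinetochore genes both 6 h arrays lay above both 1 h arrays. KIF11, the pole-separating kinesin, differed by 0.92 ± 0.21 (adjusted p = 0.0261), with both 6 h arrays above both 1 h arrays. ASPM of the spindle poles differed by 1.43 ± 0.36 (adjusted p = 0.0408), but by 2.15 within replicate 1 and 0.72 within replicate 2. CKAP2, the microtubule stabiliser, differed by 0.84 ± 0.19 (adjusted p = 0.0287). KIF23, the midzone kinesin, differed by 0.80 ± 0.20 (adjusted p = 0.0393). A second KIF23 probe, near the detection limit and detected on 3 arrays, did not separate the times. It read 71.9 and 77.3 at 6 h, against 65.4 and 92.5 at 1 h. In each of these 4 spindle and midzone genes the rise on the brightest probe was larger within replicate 1. The condensin ATPases differed by 0.99 ± 0.25 for SMC2 and 1.10 ± 0.28 for SMC4 (adjusted p = 0.0414 each). ANLN (0.78 ± 0.21, adjusted p = 0.0516), MAD2L1 (0.64 ± 0.18, adjusted p = 0.0638) and ECT2 (0.88 ± 0.26, adjusted p = 0.0682) came next and did not pass.

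**Figure D3:**
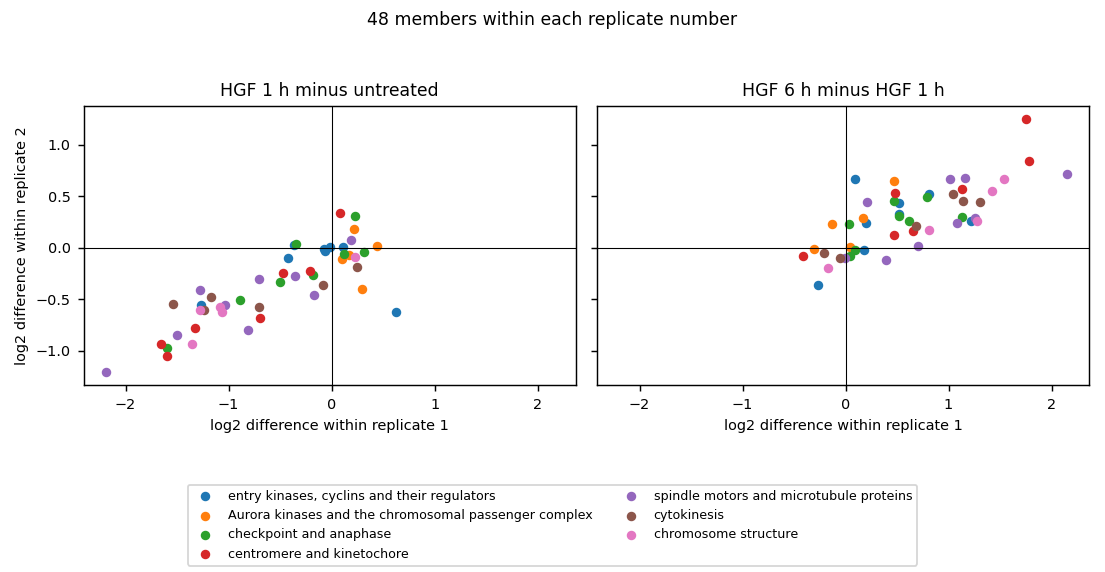
Each point is 1 of the 48 genes, with its log2 difference within replicate 1 (x axis) and within replicate 2 (y axis), for HGF 1 h minus untreated (left) and HGF 6 h minus HGF 1 h (right), coloured by role. On the left 31 genes lie below 0 on both axes, and on the right 36 lie above 0 on both.

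After 6 h of HGF, compared with untreated cells, the division genes had a median close to 0, with the 3 largest positive differences in CDC20, BIRC5 and CCNB1 and the largest negative one in TTK. The median was 0.02, with 25 genes above 0, against 52.4% of kept probes, and 23 below. Limma called 0 of the 48, against 1.9% of kept probes, while 2 were higher and 1 lower at an unadjusted p under 0.05, against 7.08% and 8.87% of kept probes. CDC20 had 4807 and 6753 at 6 h, against 2953 and 3958 in untreated cells (0.74 ± 0.26, adjusted p = 0.175). CCNB1 had 2789.5 and 3444, against 1971 and 2531 (0.47 ± 0.20, adjusted p = 0.266). BIRC5 differed by 0.51 ± 0.28, with overlapping arrays. The brighter probe of UBE2C differed by 0.27 ± 0.21 and a dimmer one by 0.67 ± 0.20. The dimmer probe was near the detection limit, undetected on replicate 1 of the untreated group (78.7) and at 24 h. TTK was the 1 gene lower at an unadjusted p under 0.05, with 668 and 732 at 6 h, against 926 and 1167 in untreated cells (-0.57 ± 0.26, adjusted p = 0.293). With the array score as a block limma called 2 of the 48 genes, CDC20 and CCNB1, both higher, among 1066 probes. By role the medians ran from -0.15 for cytokinesis to 0.27 for the entry kinases and cyclins.

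After 24 h of HGF the differences from untreated cells were small, and none was called among the 48 genes or among all kept probes (0%). KIF23, CKAP2, ANLN and ZWINT were the 4 genes lower at an unadjusted p under 0.05, against 3.39% of kept probes, and 0 were higher, against 2.32%. The median was -0.08, at 0.06 within replicate 1 and -0.26 within replicate 2, so the replicates did not share a direction, and without replicate 2 of the untreated group it was 0.11. CENPE had 197 and 128 at 24 h, against 273 and 203 in untreated cells (-0.57 ± 0.27). KIF23 had 766 and 726, against 1101 and 1082 (-0.55 ± 0.20, adjusted p = 0.857). Second probes of KIF23 and ZWINT, near the detection limit, overlapped the untreated arrays. That of KIF23 read 81.9 and 82.4 at 24 h, against 65.6 and 107.9 in untreated cells. That of ZWINT read 86.8 and 96.8, against 110.6 and 91.2. CENPF differed by -0.51 ± 0.28 and CKAP2 by -0.50 ± 0.19, each with both 24 h arrays below both untreated arrays. Compared with 1 h of HGF, 16 genes were higher at an unadjusted p under 0.05, against 3.24% of kept probes, with a median of 0.29, and again 0 genes and 0% of kept probes were called. The largest of these differences were those of ASPM (1.24 ± 0.36) and TTK (1.10 ± 0.26).

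Between 6 h and 24 h of HGF limma called 1 of the 48 genes, CDC25C, which rose, against 8.31% of all kept probes called in either direction. CDC25C, the phosphatase that removes inhibitory phosphates from CDK1, read 121 and 135 on the ITGB4 arrays, 99.5 and 121 on the untreated arrays, 95.2 and 118 at 1 h, 79.3 and 92.6 at 6 h and 126 and 163 at 24 h of HGF. Both 6 h arrays were below every other array, and both 24 h arrays were above them (0.74 ± 0.19, adjusted p = 0.0302), and one of the 6 h arrays did not detect it. The call ended without either HGF 6 h array or without replicate 2 of HGF 24 h, where limma called 0 of the 48, and the count was 2 without replicate 1 of HGF 24 h. It also ended with median scaling, the authors' value table or ordinary variances, while with the array score as a block 8 genes were called, CDC25C higher and 7 others lower, among 2163 probes. At an unadjusted p under 0.05, 8 genes were lower at 24 h, against 10% of kept probes, and CDC25C alone was higher, against 11.2%. CENPE (-0.75 ± 0.27) and CCNA2, cyclin A2 (-0.59 ± 0.25), had the largest of the negative differences.

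**Figure D4:**
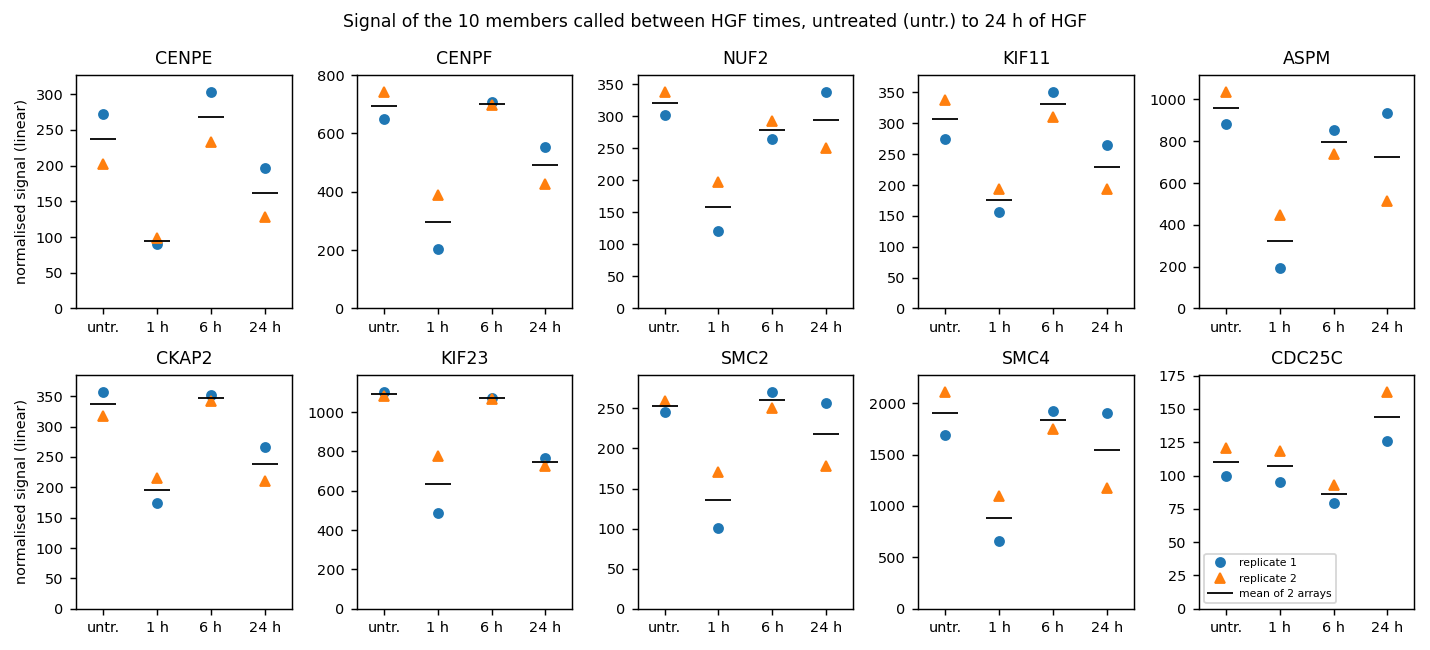
Normalised signal (linear y axes from 0) of the 10 genes called between HGF times, on each array of untreated cells (untr.) and of 1, 6 and 24 h of HGF, with circles for replicate 1, triangles for replicate 2 and a line at their mean. In 9 panels the mean is lowest at 1 h, and in the CDC25C panel it is lowest at 6 h.

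In ITGB4 cells no division gene passed the test against untreated cells. Limma called 0 of the 48 genes, against 0.00713% of kept probes, the 1 called probe being that of ITGB4 itself, and 0 genes passed an unadjusted p of 0.05 in either direction, against 0.835% of kept probes. The median was -0.03, at 0.18 within replicate 1 and -0.15 within replicate 2, and 30 of the 48 genes had opposite signs within the replicate numbers, against 47.8% of kept probes. Both ITGB4 arrays had high scores, so the difference within replicate 1 also crosses the kinds of array, which the difference within replicate 2 does not. With the array score as a block the median was -0.15, with 45 of the 48 genes below 0, against 49.3% of kept probes, and 0 genes were called. The median was -0.19, with 44 below 0, without replicate 1 of the untreated group, and 0.17, with 32 above 0, without its replicate 2. The genes farthest from 0 were PTTG1 (0.34 ± 0.28), CENPE (-0.30 ± 0.27), KIF2C (0.28 ± 0.23) and HMMR (-0.26 ± 0.29). PTTG1 had 1765 and 2372 on the ITGB4 arrays, against 1236 and 2111 on the untreated arrays. CENPE had 251 and 147, against 273 and 203. The ITGB4 and untreated arrays overlapped in all 4 of these genes.

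A wider list of 123 mitosis genes outside the 48, of which 107 were measured, showed a weaker form of the 1 h picture. At 1 h, 27 of the 107 were lower at an unadjusted p under 0.05, against 8.52% of kept probes, and 2 were higher, against 5.01%. Limma called 0 of them and 0% of kept probes, and the median was -0.08, against 0.04 over all kept probes. Those farthest from 0 were CENPK (-1.22 ± 0.30) and CENPQ (-0.93 ± 0.21), of the inner kinetochore, and KIF18A (-1.02 ± 0.22), a kinesin that damps chromosome movements. Between 1 h and 6 h FBXO5, the inhibitor of the anaphase-promoting complex, rose by 0.91 ± 0.22 (adjusted p = 0.0346). SPDL1, which recruits dynein to kinetochores, rose by 0.92 ± 0.22 (adjusted p = 0.034). LIN37, a MuvB subunit, differed by -0.95 ± 0.19 (adjusted p = 0.017) and was the 1 gene called lower. These calls are 3 of 107 (2.8%), against the 4.67% of all kept probes called in that comparison. Between 6 h and 24 h limma called 7 of the 107 (6.54%), against 8.31% of all kept probes. CIT, the citron kinase of cytokinesis, CLASP1, which binds microtubule ends, NDE1, a dynein regulator, and LIN37 rose by 0.72 ± 0.16, 0.60 ± 0.17, 0.81 ± 0.22 and 0.66 ± 0.19. The tubulin TUBB4B, the dynein regulator PAFAH1B1 and the cohesin subunit STAG1 differed by -1.29 ± 0.27, -0.98 ± 0.27 and -0.72 ± 0.19. The 41 genes of DNA replication and G1/S had a median of 0.08 at 1 h. At an unadjusted p under 0.05, 1 was lower and 1 higher (2.44% each), against 8.52% and 5.01% of kept probes. Farthest from 0 were the licensing factor CDT1 (0.48 ± 0.27), the transcription factor E2F1 (0.45 ± 0.21) and the polymerase alpha subunit POLA2 (0.44 ± 0.24). Between 6 h and 24 h limma called 3 of them lower (7.32%), against the same 8.31% of kept probes, RRM2, the small subunit of ribonucleotide reductase, UHRF1, a maintenance methylation factor, and MCM10, a replication initiation factor, with differences of -1.21 ± 0.25, -1.11 ± 0.22 and -0.74 ± 0.19.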

How the data were processed

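Total RNA of MDA-MB-435 cells was measured on 10 arrays, 2 in each of 5 groups, with groups and replicate numbers taken from the labels. The authors deposited a scanner table for every array with the linear intensity of each probe, and the submitters' processing notes name BeadStudio 1.5.1.3. Each deposited table further holds a detection score, a fraction from 0 to 1 that rises with the distance from the negative controls, and the count of beads per probe. In a further deposited table the authors give intensities of all samples after background subtraction and rank-invariant normalisation. It was used only as an alternative, because the column of ITGB4 replicate 2 was no straight line of that array's scanner values. The genome build used for the array design is not given in the sources used here.

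Of 24136 probes, 22 controls and 9 without an intensity were left out. Probes with a score of 0.99 or more on at least 1 array, the study's filter, numbered 14018. Of the 24105 probes used, 18758 had 1 gene symbol, 0 several and 5347 none. Intensities were quantile normalised and taken to log2 with no offset, and limma 3.58.1 in R 4.3.3 fitted 5 group means, with 5 residual degrees of freedom, 8.16 from the prior and two-sided moderated tests of 7 contrasts. The number of arrays limits the precision. The steps were tested on simulated data.

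The members and gene lists were chosen with earlier results of these data known. Values on every array are given for members called in any contrast, the 10 with the largest difference at 1 h, the 4 largest in each other contrast with untreated cells, and CDK1, CCNB1, PLK1, AURKA, AURKB, BUB1, BUB3, CENPA, TOP2A and BIRC5. Of the other lists, genes called and the 3 farthest from 0 at 1 h are named. Promoters and their coordinates are those of RefSeq on GRCh38.p14. Alternatives were another background correction, median scaling, the value table, no filter or a filter on 2 arrays, ordinary variances, blocks of replicate number or array score, and leaving out each array.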

Additional observations from a re-analysis of the deposited data

Results flagged for a closer look

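The differences between HGF times of 10 of the 48 genes passed the test across all probes, 9 of 48 (18.8%) between 6 h and 1 h, where 4.67% of all kept probes passed, and 1 of 48 (2.08%) between 24 h and 6 h, where 8.31% did. CENPE, the chromosome-moving kinesin, differed by 1.50 on the log2 scale between 6 h and 1 h of HGF, and CENPF of the outer kinetochore by 1.31. NUF2 of the NDC80 complex differed by 0.85 between the same times. The spindle genes KIF11, ASPM and CKAP2 differed by 0.92, 1.43 and 0.84, the midzone kinesin KIF23 by 0.80, and the condensin ATPases SMC2 and SMC4 by 0.99 and 1.10. All 9 were higher at 6 h within both replicate numbers, and limma called 0 of the 48 genes in this comparison without replicate 1 of HGF 1 h, 0 with ordinary variances and 1 with the authors' value table. With ordinary variances limma also called 0 of all kept probes between 6 h and 1 h. CDC25C, the phosphatase of CDK1, differed by 0.74 between 24 h and 6 h of HGF, near the detection limit. No group held more than 2 arrays, so no single array could be tested as standing apart.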

How the results depend on the processing

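Under the alternatives with all 10 arrays the median over the 48 genes ran from -0.42 to -0.29 for 1 h against untreated and from 0.39 to 0.62 for 6 h against 1 h, and that of ITGB4 cells from -0.15 with the array score as a block to 0.0074 with the value table. With single arrays left out they ran from -0.56 to -0.090 for 1 h against untreated, from 0.21 to 0.69 for 6 h against 1 h, from 0.063 to 0.51 for 24 h against 1 h, from -0.19 to 0.17 for ITGB4 against untreated and from -0.28 to 0.11 for 24 h against untreated, with the sign of the last 2 turned without replicate 2 of the untreated group. The lone array of a group is then assumed to vary like the other groups.

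Calls moved more. Members called between 6 h and 1 h, 9 in all, were 0 to 18 with single arrays left out, 4 with no filter on low values, 1 with the value table and 0 with ordinary variances. Those between 24 h and 6 h, 1 in all, were 0 to 2 with single arrays left out, and 0 with median scaling, the value table or ordinary variances. Among all kept probes, single arrays left out gave 0 to 1037 calls for 6 h against 1 h, 308 to 1068 for 24 h against 6 h, 0 to 490 for 6 h against untreated and 1 to 2 for ITGB4 against untreated. The value table gave 202, 641 and 65 probes for 6 h against 1 h, 24 h against 6 h and 6 h against untreated, and ordinary variances 0, 107 and 0. The cause was not tested.

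Same-numbered arrays correlated in their deviations from the group means by -0.06 to 0.66, over 0.1 in 8 of 10 pairs of groups. The lowest were those of HGF 1 h with ITGB4 (-0.06) and with HGF 24 h (0.06). The numbers were left out of the main fit because the study's methods do not use them. A difference shared by same-numbered arrays therefore stays in the residual spread of that fit. With the replicate number as a block the members called were 17, all lower, for 1 h against untreated (427 probes), 1 for 6 h against untreated (1089), 21 for 6 h against 1 h (1871), 7, of which 6 lower, for 24 h against 6 h (2245) and 0 for 24 h against 1 h (4). The array score groups the untreated and HGF arrays as the replicate number does and differs only in replicate 1 of ITGB4. With the array score as a block the members called were 0 for 1 h against untreated and 2 for 6 h against untreated (1066). They were 21 for 6 h against 1 h (1690) and 8, of which 7 lower, for 24 h against 6 h (2163). That block without replicate 1 of HGF 1 h, chosen after seeing the data, gave 4 (1799), 2 (355) and 10 (2951) for the last 3 of these comparisons. The count of genes lower at 1 h at an unadjusted p under 0.05, another summary added after seeing the data, ran from 14 to 25. Of 3591 values of single genes under these settings 314 moved or crossed the threshold, and 0 turned direction once called. Signals near the detection limit, as for CENPE at 1 h, CDC25C and INCENP, bound how low a value can read.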
